A study of Mus musculus with 48 samples.

Results

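The genes that carry glucose to lactate or into the mitochondrion were examined by pathway step and by isoform in the substantia nigra (SN) of mice. The set consisted of 37 gene symbols, chosen by name: 2 glucose transporters, the enzymes of glycolysis with their isoforms, the PFKFB enzymes that set the level of fructose 2,6-bisphosphate, lactate dehydrogenase, the monocarboxylate transporters (MCTs), and the kinases, phosphatase, complex subunits and carrier that govern the entry of pyruvate into mitochondria. These symbols matched 38 of the 19601 protein-coding gene records in the batch-corrected tables, because Aldoa has a second record with few counts, and all 38 were counted deeply enough to be among the 14839 genes tested. The chosen genes are referred to as members.

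Male C57BL/6J mice aged 121 days received α-synuclein into the right striatum, either as preformed fibrils (PFF) or, in the controls, as monomer, and then breathed 21% or 11% O2. Of 12 mice per group, the 42 mice analysed by the authors comprised 11 monomer and 12 PFF mice at 21% O2 and 9 monomer and 10 PFF mice at 11% O2. The labels and the paper give 11% O2 from injection to harvest, 12 weeks later, whereas the series description gives 6 weeks of 21% O2 followed by 6 weeks of 11% O2. By the labelled dates, harvest came 90 or 91 days after injection in every mouse but 1 monomer mouse at 11% O2, for which they give 98 days. Poly(A) RNA of whole dissected SN was sequenced, with between 12902996 and 17120921 counts in each of the 42 mice. The injection was on one side, and α-synuclein pathology in this model starts from the injected material, so the PFF groups model seeded aggregation and not a genetic disease. In bulk tissue, fewer cells of a type and less RNA per cell cannot be told apart. The summed level of 6 dopaminergic markers varied widely between mice of a group. At 21% O2 it ranged from 730.6 to 3873 TPM in monomer and from 620.5 to 4046 in PFF mice. At 11% O2 it ranged from 538.5 to 4312 and from 1241 to 3663. The part of dissection or of neuron number in this spread was not tested. No marker on the neuronal lists was at 0 in a whole group.

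Glycolysis splits glucose into pyruvate and yields ATP without O2. Lactate dehydrogenase then turns pyruvate into lactate, which leaves or enters cells through MCTs, while the pyruvate dehydrogenase (PDH) complex commits pyruvate to oxidation and is switched off by PDH kinases and on again by PDH phosphatases. Most steps are served by several isoforms from separate genes. In the brain, some isoforms are typical of neurons (Eno2, Slc2a3, Slc16a7), others of glia or vessels (Aldoc, Slc2a1), and several are known targets of hypoxia-inducible factors (HIFs), including Ldha, Pdk1, Slc16a3 and Slc2a1.

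Breathing 11% O2 raised a small set of members, most of them isoforms that were the less abundant of their step, and the same 4 genes were called in monomer and in PFF mice. A gene was called when edgeR's quasi-likelihood test gave a Benjamini–Hochberg adjusted p under 0.05 over all 14839 genes and the log2 fold change was beyond 0.25 in either direction. In monomer mice, 6 of 38 members were called at 11% against 21% O2, with 5 higher (Ldha, Pfkl, Pdk1, Slc16a3 and Slc16a1) and 1 lower (Pdp1), where 7.23% of all genes tested were called, 4.68% higher and 2.55% lower. In PFF mice, 5 of 38 members were called, all higher (Ldha, Pfkl, Pdk1, Slc16a3 and Pgam2), where 0.580% of all genes were called, 0.438% higher and 0.142% lower. By the adjusted p alone, the counts were 10 higher and 2 lower in monomer mice, against a background of 13.2% of all genes (7.01% higher and 6.21% lower), and 9 higher and none lower in PFF mice, against 0.815% (0.620% higher and 0.195% lower). Ldha, Pfkl, Pdk1 and Slc16a3 were called in both. Ldha and Slc16a3 were picked out by the study on these same samples, so here these 2 are not independent evidence of a direction. In separate mice, the paper reports more Slc16a3 protein and an upward trend of Ldha protein with hypoxia. Without these 2 genes, 3 members were called higher in each comparison.

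Over the 38 members the log2 fold change had a median of 0.0844 for monomer mice and 0.0669 for PFF mice, beside -0.00596 and -0.00631 over all genes tested. The monomer and PFF comparisons have no mouse in common, although they share the batch correction and the estimate of the spread. The sign of the change was the same in both for 33 of 38 members (86.8%), beside 58.0% of all genes, and the log2 fold changes of the 2 comparisons correlated with Pearson's r = 0.786 over the 38 members and 0.285 over all genes. Genes share libraries and are not replicates, so these are descriptions. By part of the pathway, the preparatory steps ran from hexokinase to triosephosphate isomerase and were taken to include the PFKFB regulators and both Aldoa records. Of these 14 records, 13 had a positive log2 fold change in monomer mice and 11 in PFF mice. In each comparison 4 passed the adjusted p, all higher, where 7.01% of all genes did so in monomer and 0.620% in PFF mice. Pfkfb2 (adjusted p = 0.0498) was among the 4 in monomer mice. At the entry of pyruvate into mitochondria, 3 of 10 members were positive and 7 negative in each comparison, with medians of -0.0340 and -0.0437.

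**Figure D1:**
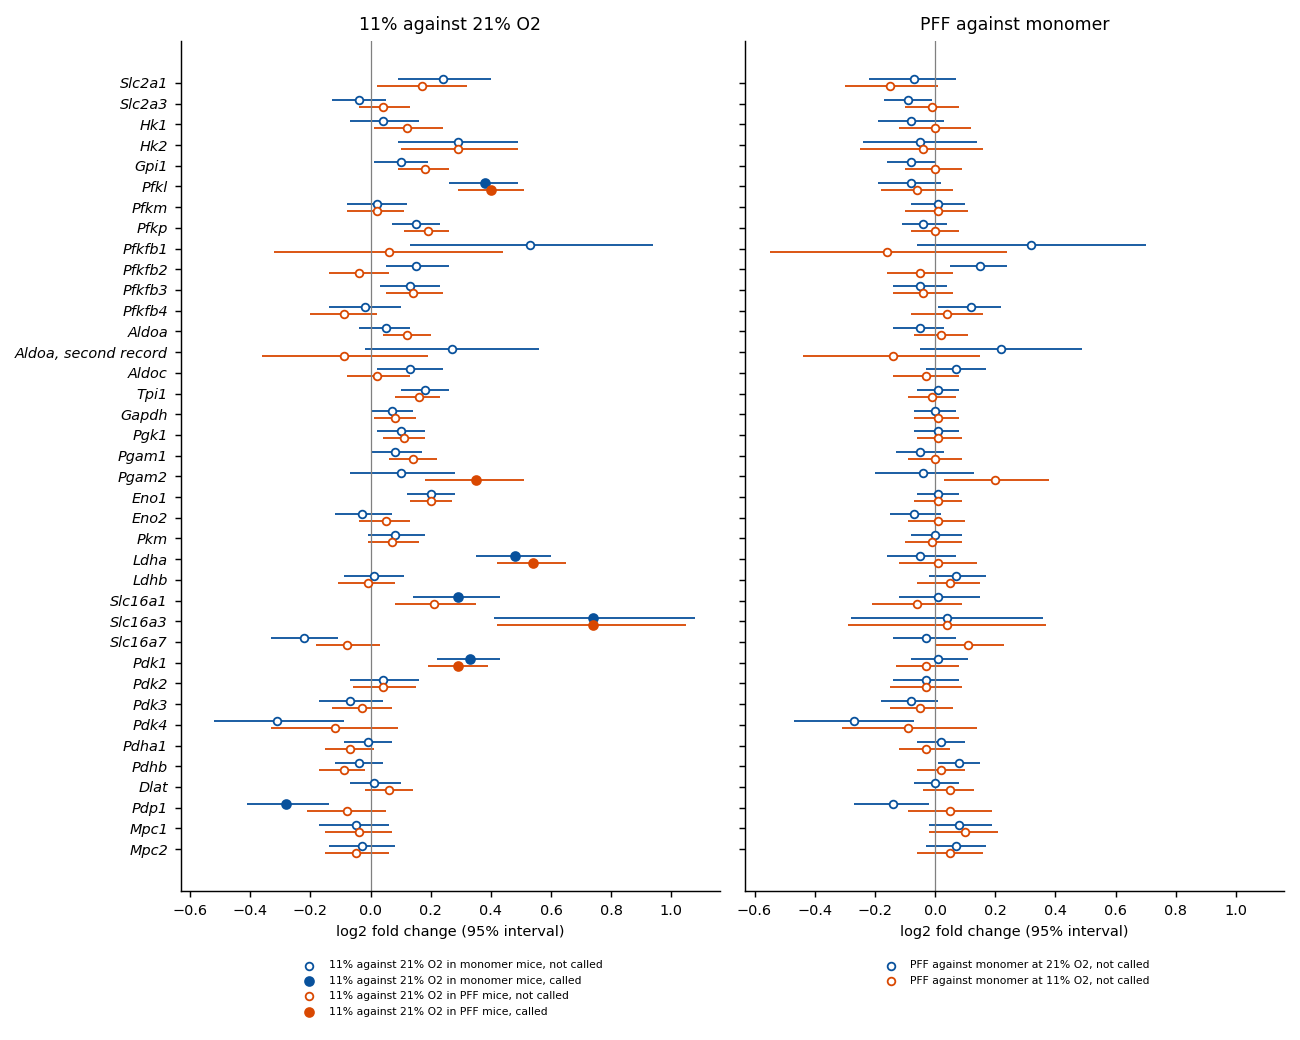
Log2 fold change of each of the 38 member records, in pathway order from glucose transport to mitochondrial entry, with its 95% interval (1.96 SE). The left panel shows 11% against 21% O2 in monomer (blue) and PFF (orange) mice, and the right panel shows PFF against monomer at 21% (blue) and 11% (orange) O2; filled points are called. Filled points stand only in the left panel, at Pfkl, Ldha, Slc16a3 and Pdk1 in both colours and at Slc16a1, Pdp1 and Pgam2 in one.

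The promoters of the 4 members called in both O2 comparisons are shown because HIFs recognise a short core, ACGTG or GCGTG, in the regulatory DNA of their targets. Each run covers 250 bases before and 50 from the transcription start, read 5′ to 3′ on the gene's strand, in RefSeq annotation of GRCm38.p6. Capitals mark every ACGTG or GCGTG on either strand, so that CACGT and CACGC are the same motifs on the other strand. Where a gene had 2 starts, the one nearer to the 5′ end of the GENCODE gene is shown. The regions are chr7:46845554-46845853 (plus strand) for Ldha, chr10:78009758-78010057 (minus strand) for Pfkl, chr2:71872974-71873273 (plus strand) for Pdk1 and chr11:120948817-120949116 (plus strand) for Slc16a3.
Ldha: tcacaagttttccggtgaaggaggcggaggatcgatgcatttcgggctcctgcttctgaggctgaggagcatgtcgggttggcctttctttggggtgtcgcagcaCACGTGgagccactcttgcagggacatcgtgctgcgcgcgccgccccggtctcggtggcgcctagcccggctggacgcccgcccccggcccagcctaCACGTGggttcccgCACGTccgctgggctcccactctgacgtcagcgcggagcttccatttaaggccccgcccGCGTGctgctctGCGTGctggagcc
Pfkl: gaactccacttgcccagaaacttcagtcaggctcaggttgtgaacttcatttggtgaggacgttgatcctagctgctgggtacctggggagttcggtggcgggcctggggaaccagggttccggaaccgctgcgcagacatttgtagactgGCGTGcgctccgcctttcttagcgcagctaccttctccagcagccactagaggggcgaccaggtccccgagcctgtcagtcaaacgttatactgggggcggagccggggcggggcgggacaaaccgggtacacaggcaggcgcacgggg
Pdk1: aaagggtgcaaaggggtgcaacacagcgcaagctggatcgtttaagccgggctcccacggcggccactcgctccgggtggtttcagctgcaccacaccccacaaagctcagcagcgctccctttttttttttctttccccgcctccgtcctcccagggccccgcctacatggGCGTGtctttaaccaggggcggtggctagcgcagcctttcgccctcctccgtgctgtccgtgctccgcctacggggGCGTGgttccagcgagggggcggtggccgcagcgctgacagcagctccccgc
Slc16a3: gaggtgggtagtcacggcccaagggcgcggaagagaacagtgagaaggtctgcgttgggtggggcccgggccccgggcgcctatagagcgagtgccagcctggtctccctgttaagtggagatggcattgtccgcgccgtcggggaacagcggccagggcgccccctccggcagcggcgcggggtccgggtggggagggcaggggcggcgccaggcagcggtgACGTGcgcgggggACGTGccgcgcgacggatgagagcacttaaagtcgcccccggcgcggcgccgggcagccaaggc
The Ldha window held 5 matches to ACGTG and 2 to GCGTG; it holds the palindrome CACGTG, which counts once on each strand and is also an E-box. Pfkl had 1 and Pdk1 2 matches to GCGTG, and Slc16a3 had 2 matches to ACGTG. Of the 37 symbols, 34 had a promoter sequence, with 54 starts in all. At least 1 of the 2 motifs was found in 72.2% of these 54 windows, in 43.8% of all 32851 windows of the same length, in 75.0% of the 8 windows of the members called higher, and in 69.4% of the 36 windows of members that did not pass the adjusted p as higher in either O2 comparison. The median GC content was 61.0% in member windows and 52.7% in all windows, and both motifs hold a CG. A match is a description of letters and not a site of binding.

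Levels are given as TPM, which are counts scaled by gene length to a sum of 1000000 per mouse, so that they can be compared between genes. At 21% O2 in monomer mice, the most abundant member was Ldhb with a mean of 1689 ± 137 TPM (SD, n = 11), followed by Aldoc with 1567 ± 124, Pkm with 1381 ± 72.8, Aldoa with 1331 ± 85.1 and Gapdh with 1306 ± 34.5 TPM. The differences between Pkm, Aldoa and Gapdh were of the order of their SD. The lowest was Pfkfb1 with 0.753 ± 0.247 TPM. In each step with several isoforms, the isoform with the highest level was not called in any comparison, with the exception of Slc16a1 among the MCTs. Of these main isoforms, Eno1 passed the adjusted p in both O2 comparisons, with a log2 fold change of 0.20 in each. Slc2a1 passed it in monomer mice with 0.24. Eno1 and Slc2a1 stayed short of the fold threshold.

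**Figure D2:**
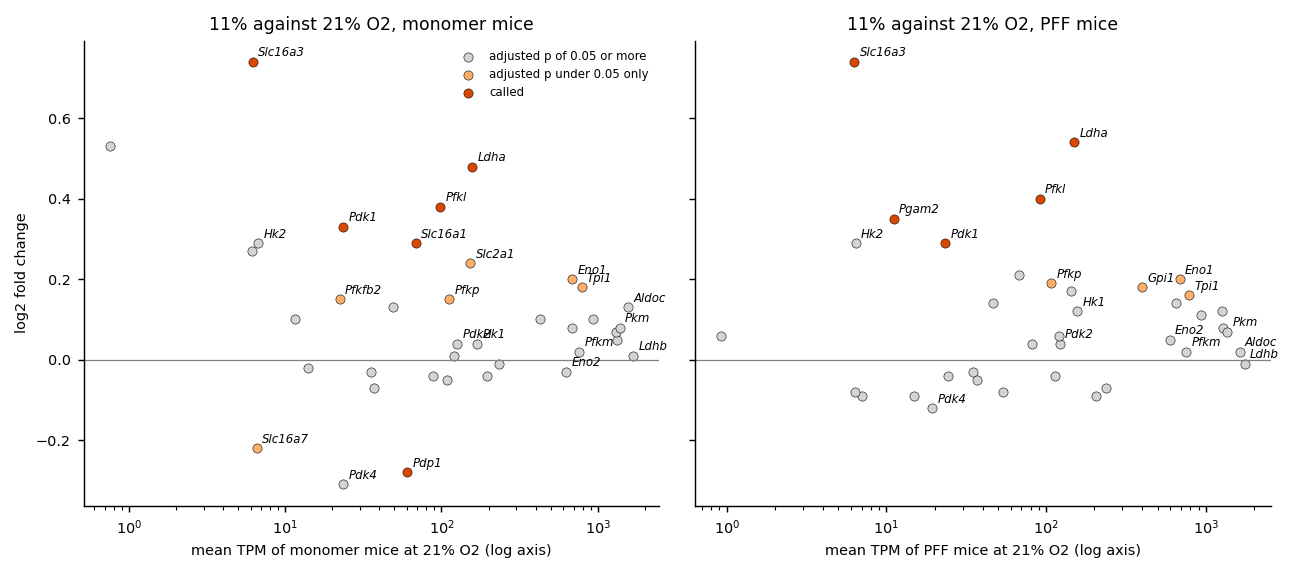
Each point is 1 of the 38 member records: its mean TPM at 21% O2 (log axis) against its log2 fold change at 11% O2, in monomer (left) and PFF (right) mice. The called members (dark) lie between 6.18 TPM (Slc16a3) and 157 TPM (Ldha) in monomer mice, while the 5 most abundant members lie between -0.01 and 0.13 in both panels.

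No gene of glucose entry was called. Slc2a1, which encodes GLUT1, the transporter of the blood-brain barrier and of glia, ranged from 130.8 to 180.3 TPM (median 153) in monomer mice at 21% O2 and from 133.6 to 218.2 (median 175.1) at 11% O2, and the groups overlapped. Its change of 0.24 on the log2 scale (SE 0.0787, adjusted p = 0.0338) passed the adjusted p but not the fold threshold, and the value for PFF mice was 0.17 (adjusted p = 0.411). The neuronal GLUT3 gene Slc2a3 had log2 fold changes of -0.04 and 0.04, with 95% intervals from -0.13 to 0.05 and from -0.04 to 0.13. Slc2a1 made up 63.3 ± 3.93% of the summed TPM of both transporters in monomer mice at 21% O2 and 67.5 ± 3.55% at 11% O2. At hexokinase, which traps glucose as its phosphate, Hk1 held 96.1 ± 0.778% of the TPM in monomer mice at 21% O2. Hk2, the isoform that is known as a HIF target, had a log2 fold change of 0.29 in each comparison, which did not pass the test for monomer (adjusted p = 0.0563) or PFF mice (adjusted p = 0.205), at a level of 6.70 ± 0.998 TPM. The monomer result depended on the setting. Hk2 was called there with DESeq2, with batch as a covariate in 48 mice, and without monomer mouse 3 at 11% O2.

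At phosphofructokinase, the committed step of glycolysis, the liver-type isoform Pfkl (chr10:77986947-78010083) rose and the muscle-type isoform Pfkm, the main one here, was not called. Pfkl ranged from 84.2 to 107 TPM (median 97.2) in monomer mice at 21% O2, from 81.8 to 103 (median 88.7) in PFF mice at 21%, from 97.0 to 151 (median 131) in monomer mice at 11% and from 109 to 128 (median 122) in PFF mice at 11% O2. In PFF mice every value at 11% lay above every value at 21% O2, whereas the monomer groups overlapped; only 0.0876% of all genes had such separate ranges in PFF mice. Pfkl rose by 30.1% among monomer mice (log2 fold change 0.38, SE 0.0587, adjusted p = 2.1e-05) and by 32.4% among PFF mice (0.40, SE 0.0560, adjusted p = 9.6e-06). For Pfkm, at 756 ± 50.8 TPM, both log2 fold changes were 0.02, with 95% intervals from -0.08 to 0.12 and from -0.08 to 0.11. The platelet-type Pfkp passed the adjusted p alone with log2 fold changes of 0.15 (adjusted p = 0.0131) and 0.19 (adjusted p = 0.00721). The share of Pfkl in the phosphofructokinase TPM was 10.1 ± 0.799% and 9.57 ± 0.650% in monomer and PFF mice at 21% O2 and 12.5 ± 1.04% and 12.0 ± 0.526% at 11% O2.

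The 4 PFKFB genes make or remove the activator of phosphofructokinase. None was called. Pfkfb1, at the lowest level of all members, had a log2 fold change of 0.53 in monomer mice (95% interval from 0.13 to 0.94, adjusted p = 0.0742) and of 0.06 in PFF mice (from -0.32 to 0.44). Pfkfb3, the main isoform with 56.9 ± 1.56% of the PFKFB TPM, had log2 fold changes of 0.13 (adjusted p = 0.0708) and 0.14 (adjusted p = 0.190). Pfkfb2 reached an adjusted p of 0.0498 in monomer mice with a log2 fold change of 0.15, and had -0.04 (adjusted p = 0.813) in PFF mice. Of the other preparatory steps, Gpi1, which isomerises glucose 6-phosphate, passed the adjusted p in PFF mice with a log2 fold change of 0.18 (adjusted p = 0.0330), and Tpi1, which interconverts the triose phosphates, in both, with 0.18 (adjusted p = 0.00151) and 0.16 (adjusted p = 0.0254). Tpi1 was 746 to 823 TPM (median 783) in monomer mice at 21% O2 and 827 to 994 (median 872) at 11% O2, so that these groups did not overlap, which held for 0.391% of all genes. In PFF mice Tpi1 was 669.6 to 885.5 (median 785.6) at 21% O2 and 837.3 to 910.5 (median 884.1) at 11% O2, with overlap. Aldolase did not differ by the test: Aldoc, the astrocytic isoform, had log2 fold changes of 0.13 (adjusted p = 0.103) and 0.02 (adjusted p = 0.904), and Aldoa 0.05 (adjusted p = 0.538) and 0.12 (adjusted p = 0.248).

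The pay-off steps produce ATP and pyruvate. Of their 7 genes, 6 had a positive log2 fold change in monomer mice and all 7 in PFF mice. Only 1 was called, and in PFF mice alone, where 0.580% of all genes were called. Eno1, the ubiquitous enolase, passed the adjusted p in both, rising from 688 ± 34.9 (n = 11) to 788 ± 39.4 TPM (n = 9) in monomer mice and from 685 ± 41.1 (n = 12) to 787 ± 21.0 TPM (n = 10) in PFF mice. Its log2 fold change was 0.20 in each (adjusted p = 0.000424 and 0.00149). The neuronal enolase Eno2 had -0.03 (95% interval from -0.12 to 0.07) and 0.05 (from -0.04 to 0.13). Pgam2, the muscle form of phosphoglycerate mutase (chr11:5801640-5803733), was low: 7.93 to 13.3 TPM (median 11.4) in PFF mice at 21% O2 and 12.2 to 15.8 (median 14.3) at 11% O2, with 9.24 to 13.9 (median 11.1) and 11.2 to 14.7 (median 11.8) in monomer mice at 21% and 11% O2. It was called in PFF mice at 0.35 (SE 0.0843, adjusted p = 0.0482) and had 0.10 (adjusted p = 0.547) in monomer mice; the test of that difference gave an adjusted p of 0.425. The call in PFF mice was lost with DESeq2, with the replicate block, with batch as a covariate in all 48 mice, with no filter on low counts, and without PFF mouse 3 or 9 at 11% O2, each of which called the other 4 members. The abundant Pkm, Pgk1, Gapdh and Pgam1 had log2 fold changes from 0.07 to 0.14 with adjusted p values from 0.0816 to 0.568.

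Lactate dehydrogenase gave the clearest contrast within a step. Ldha (chr7:46841475-46855627) encodes the M subunit, which favours lactate formation, and Ldhb the H subunit, which is known for lactate use. Ldha ranged from 121.6 to 199.8 TPM (median 154.3) in monomer mice at 21% O2, from 124.2 to 171.2 (median 151.5) in PFF mice at 21%, from 189.9 to 255.3 (median 221.5) in monomer mice at 11% and from 195.1 to 238.7 (median 216.8) in PFF mice at 11% O2. All PFF mice at 11% O2 were above all PFF mice at 21%, and such separate ranges held for 0.0876% of all genes in PFF mice. The monomer groups overlapped slightly. The rise was 39.1% among monomer mice (log2 fold change 0.48, SE 0.0628, adjusted p = 1.2e-06) and 44.9% among PFF mice (0.54, SE 0.0599, adjusted p = 7.8e-08). Ldhb had means from 1689 to 1752 TPM in the 4 groups, with log2 fold changes of 0.01 (95% interval from -0.09 to 0.11) and -0.01 (from -0.11 to 0.08). Ldha made up 8.62 ± 1.76% and 7.95 ± 1.14% of the lactate dehydrogenase TPM in monomer and PFF mice at 21% O2, and 11.5 ± 1.91% and 11.2 ± 1.11% at 11% O2. Before batch correction these shares were 8.62%, 7.93%, 11.6% and 11.1%.

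**Figure D3:**
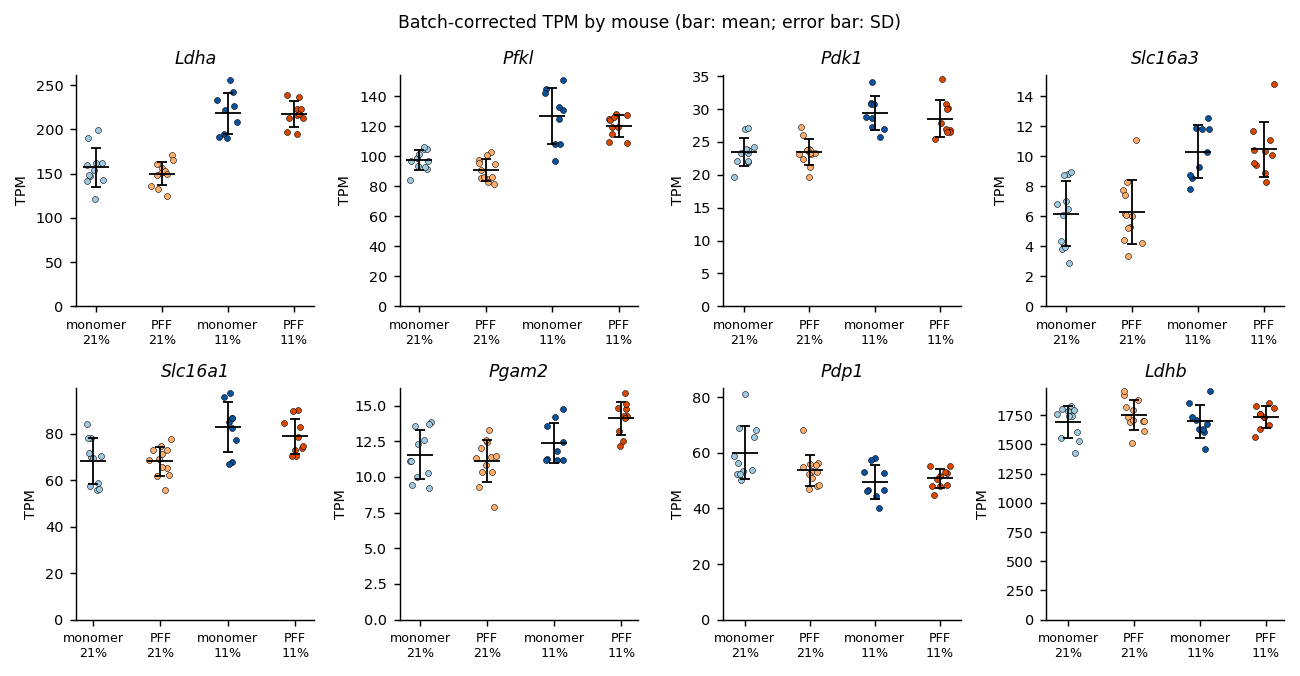
Batch-corrected TPM in each mouse (points) of the 4 groups, with mean and SD, for the 7 members called at 11% O2 and for Ldhb; every axis starts at 0. Ldha, Pfkl, Pdk1 and Slc16a3 are higher in both 11% O2 groups, and Ldhb is level across the 4 groups.

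Among the MCTs, which carry lactate and pyruvate with a proton, Slc16a3 and Slc16a1 rose and Slc16a7 fell in monomer mice by the adjusted p, and Slc16a3 rose in PFF mice. Slc16a3 (chr11:120948480-120960868) encodes MCT4, the low-affinity transporter that glycolytic cells use to export lactate. It was scarce, with 2.87 to 8.97 TPM (median 6.51) in monomer mice and 3.33 to 11.1 (median 6.08) in PFF mice at 21% O2, and with 7.84 to 12.5 (median 10.3) and 8.32 to 14.8 (median 10.2) at 11% O2. The groups overlapped, yet its rise of 67.5% among monomer mice (log2 fold change 0.74, SE 0.169, adjusted p = 0.00237) and 67.0% among PFF mice (0.74, SE 0.161, adjusted p = 0.0110) was the largest among the called members. Slc16a1 (chr3:104638668-104658462), which encodes MCT1 of endothelium and oligodendrocytes, ranged from 55.8 to 84.3 TPM (median 70.1) and from 67.0 to 97.7 (median 85.1) in monomer mice at 21% and 11% O2, and from 55.7 to 77.8 (median 68.8) and 70.4 to 90.2 (median 76.8) in PFF mice. Slc16a1 was called in monomer mice at 0.29 (SE 0.0743, adjusted p = 0.00749). With batch as a covariate on uncorrected counts it was not called in 42 mice (adjusted p = 0.0507) but was in 48 mice. In PFF mice it had 0.21 (adjusted p = 0.188). The neuronal MCT2 gene Slc16a7 passed the adjusted p alone in monomer mice with -0.22 (adjusted p = 0.00660), but not with batch as a covariate on uncorrected counts of 42 mice (-0.17, adjusted p = 0.0962) or 48 mice (-0.17, adjusted p = 0.0767), and had -0.08 (adjusted p = 0.652) in PFF mice. Its share of the MCT TPM was 8.23 ± 1.22% and 7.89 ± 0.864% at 21% O2 and 5.74 ± 0.781% and 6.35 ± 0.721% at 11% O2, in monomer and PFF mice respectively, while that of Slc16a3 went from 7.82 ± 3.11% and 7.81 ± 2.77% to 10.6 ± 2.53% and 11.0 ± 1.87%.

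**Figure D4:**
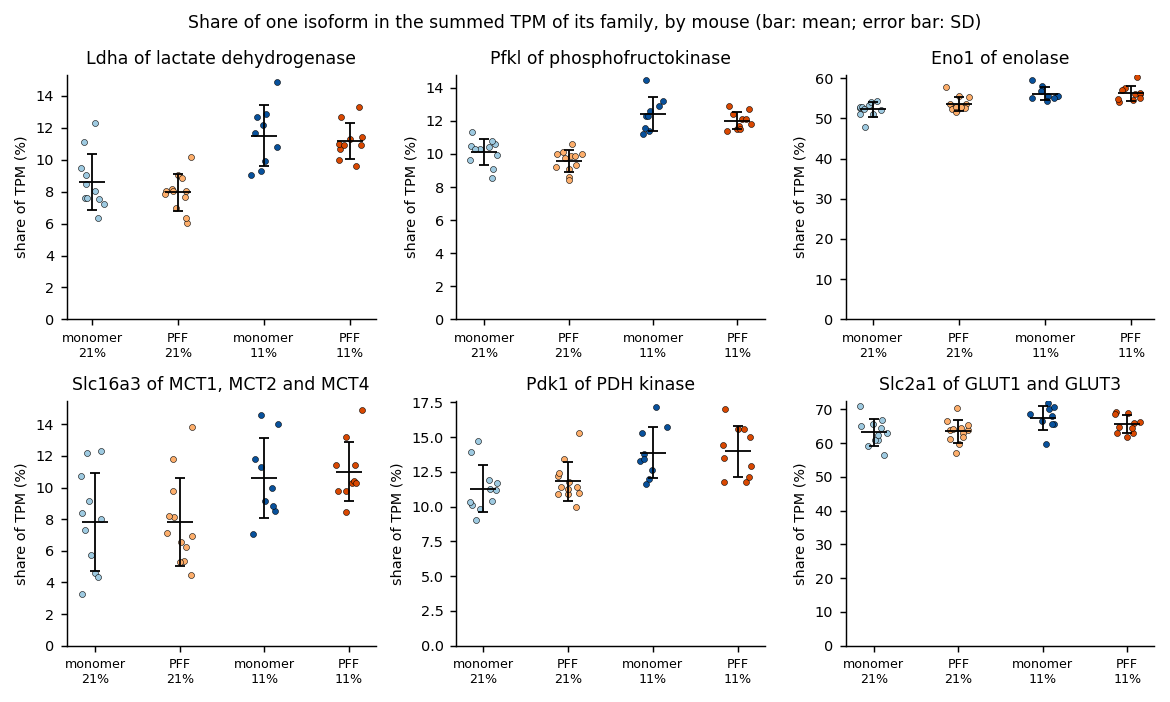
Share of 1 isoform in the summed TPM of its family in each mouse, with mean and SD, in the 4 groups. Each of the 6 shares has a higher mean at 11% than at 21% O2 in monomer and in PFF mice.

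At the entry of pyruvate into mitochondria, 1 of the 4 PDH kinases rose. Pdk1 (chr2:71873224-71903858), the kinase known as a HIF target, ranged from 19.7 to 27.1 TPM (median 23.3) in monomer and 19.6 to 27.3 (median 23.3) in PFF mice at 21% O2, and from 25.7 to 34.1 (median 28.7) and 25.5 to 34.5 (median 27.4) at 11% O2. The ranges overlapped only at their ends. Pdk1 rose by 25.3% among monomer mice (log2 fold change 0.33, SE 0.0529, adjusted p = 4.1e-05) and by 21.9% among PFF mice (0.29, SE 0.0505, adjusted p = 0.000769). Pdk2, the main kinase with 59.8 ± 2.78% of the PDH kinase TPM, had 0.04 in both, with 95% intervals from -0.07 to 0.16 and from -0.06 to 0.15. Pdk4, which responds to fasting, had -0.31 in monomer mice (adjusted p = 0.0563) and -0.12 in PFF mice (adjusted p = 0.735). Some alternatives did call Pdk4 in monomer mice. These were DESeq2, limma at a mean TPM of at least 1, the replicate block, and the fit without monomer mouse 7 at 11% O2. Pdp1 (chr4:11958184-11966452), the phosphatase that reactivates the complex, was the 1 member called lower: 50.2 to 81.3 TPM (median 56.2) at 21% O2 and 40.2 to 58.2 (median 46.5) at 11% O2 in monomer mice, with overlapping groups, a log2 fold change of -0.28 (SE 0.0701) and an adjusted p of 0.00644. In PFF mice Pdp1 ranged from 47.1 to 68.2 (median 53.2) and from 44.7 to 55.3 (median 51.2), with -0.08 (adjusted p = 0.714), and the difference between the 2 responses had an adjusted p of 0.319. The call lay near the fold threshold: without monomer mouse 7 at 11% O2 the log2 fold change was -0.24 (adjusted p = 0.0204), short of that threshold. Of 15 alternatives that kept all batches, the other 14 called Pdp1 in monomer mice. The complex itself (Pdha1, Pdhb, Dlat) and the pyruvate carrier (Mpc1, Mpc2) had log2 fold changes from -0.09 to 0.06, none past the test.

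No member passed the edgeR test on the batch-corrected counts of the 42 mice for PFF against monomer. Some alternatives gave an adjusted p under 0.05 at 21% O2, without a call. Slc2a3 did so with batch as a covariate in 42 mice and in batch 2 alone (-0.22, adjusted p = 0.0173 by edgeR). Pfkfb2 did so without monomer mouse 3 at 11% O2. At 21% O2, 0 of 38 members were called by edgeR, DESeq2 or limma, where 3.70% of all genes were called by edgeR, and 6 had an unadjusted p under 0.05 (22.4% of all genes did). Log2 fold changes ran from -0.27 for Pdk4 (95% interval from -0.47 to -0.07, adjusted p = 0.0933) to 0.32 for Pfkfb1, and 19 of 38 were positive. The interval for Ldha was -0.16 to 0.07, for Pfkl -0.19 to 0.02 and for Pdk1 -0.08 to 0.11. At 11% O2, 0 of 38 members were called, with 1 (Pgam2) at an unadjusted p under 0.05, where 3.92% of all genes were, and 0 of all genes were called by edgeR (1 by DESeq2 and 0 by limma), so that the background was 0%. The interaction of injection and O2 asks whether PFF mice responded to 11% O2 differently from monomer mice. It was called for 0 of 38 members, by edgeR, DESeq2 and limma, where 2.14% of all genes were called. At an unadjusted p under 0.05 there were 2 of 38 members (Pfkfb2 and Pdp1), where 15.4% of all genes were. The difference of the 2 responses was 0.06 for Ldha (95% interval from -0.11 to 0.23), 0.03 for Pfkl (-0.13 to 0.18) and -0.04 for Pdk1 (-0.18 to 0.10), and for Slc16a3 it was poorly bounded (-0.46 to 0.45).

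Mice were collected in 3 batches by harvest date. Batch 1 held mice of all 4 groups, but monomer mice at 21% and 11% O2 met in no other batch, whereas PFF mice at both O2 levels were in each. In PFF mice, Ldha had a log2 fold change of 0.62 (SE 0.108), 0.49 (SE 0.0961) and 0.51 (SE 0.0976) within batches 1, 2 and 3, and 0.40 (SE 0.101) among monomer mice of batch 1. Pfkl had 0.46, 0.35 and 0.35 among PFF mice of the 3 batches and 0.48 among monomer mice, and Pdk1 had 0.37, 0.20, 0.27 and 0.28 in the same order. For Slc16a3 the values were 0.67, 0.57 and 0.96 with PFF and 0.50 with monomer. The direction of these 4 genes was thus the same in every batch in which it could be taken. With 3 or 4 mice per group, few were called within a batch. In batch 1, 2 members were called in monomer mice (Pfkl and Slc16a7), where 2.01% of all genes tested were, and 5 passed the adjusted p alone (these 2 with Eno1, Pfkp and Tpi1), where 2.46% did. In PFF mice 1 member (Pfkl) was called in batch 1, where 0.0406% of all genes were, and none in batches 2 and 3, where 0.0472% and 0.0136% were. Slc16a1 had 0.17 with monomer in batch 1 and 0.11, 0.19 and 0.32 with PFF, and Pdp1 had -0.37 with monomer and -0.05, -0.13 and -0.05 with PFF.

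**Figure D5:**
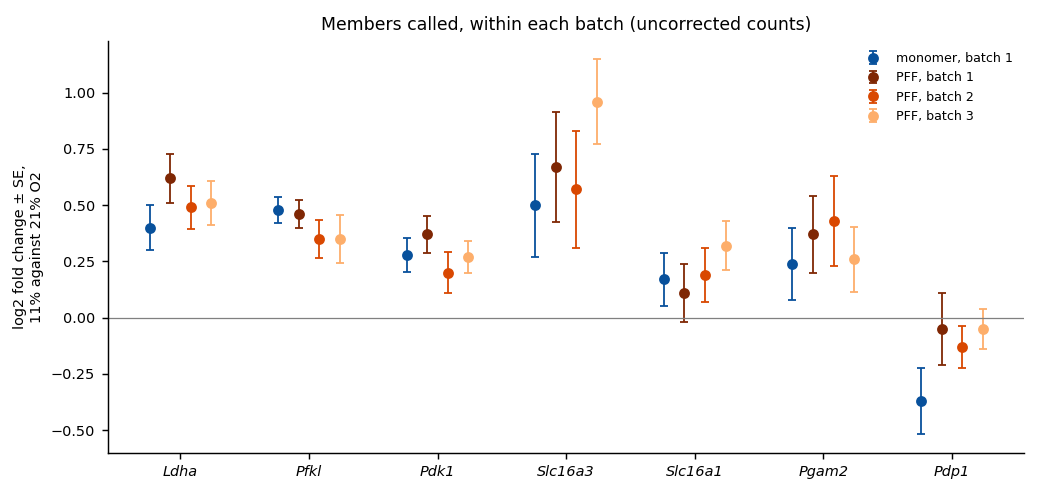
Log2 fold change at 11% against 21% O2 (points) with its SE (bars) within each batch, from uncorrected counts, for the 7 called members; monomer mice could be compared in batch 1 only. Ldha, Pfkl, Pdk1 and Slc16a3 lie above 0 in all 4 comparisons, whereas Pdp1 is lowest in monomer mice at -0.37.

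Markers of vessels and blood moved with the O2 level. In monomer mice at 11% O2, 7 of 8 endothelial, 6 of 6 pericyte and 5 of 5 erythroid markers were called higher (medians 0.548, 0.575 and 1.32 on the log2 scale). In PFF mice 2, 3 and 0 were called, with medians of 0.346, 0.415 and 0.791. The summed TPM of the endothelial markers ranged from 144.1 to 205.9 and from 126.1 to 234.7 in monomer and PFF mice at 21% O2, and from 204.6 to 367.6 and from 202.1 to 282.5 at 11% O2. The pericyte sums were 202.4 to 321.7 and 174.8 to 409.1 at 21% O2 and 266.5 to 596.5 and 261.3 to 363.4 at 11% O2. The erythroid sums were 513.8 to 1404 and 383.1 to 2409 at 21% O2 and 1058 to 5795 and 1104 to 4972 at 11% O2. Of 8 oligodendrocyte markers, Mog and Cnp were called higher in monomer mice. No astrocyte, microglia, neuron or dopaminergic neuron marker was called in either O2 comparison, where 7.23% and 0.580% of all genes were. The medians of these 4 lists, in that order, were 0.0751, 0.161, -0.0572 and 0.140 in monomer mice. In PFF mice they were -0.00621, 0.0343, 0.0202 and -0.0145. With so few genes per list, the lack of a call does not show that a list was unchanged. No marker of these lists was at 0 in every mouse of a group. Slc2a1 and Slc16a1 are known endothelial genes, and the part of these cells in the changes of any member was not tested.

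The other genes of carbohydrate metabolism, given as 8 lists with 77 genes tested, had medians near 0 at 11% O2, of 0.00731 on the log2 scale in monomer mice and -0.00575 in PFF mice. None of the 77 was called lower in monomer mice, where 2.55% of all genes were. In PFF mice none was called higher and 1 lower, where 0.438% and 0.142% of all genes were. Gpd1, the cytosolic enzyme of the glycerol phosphate shuttle that is typical of oligodendrocytes, was called in monomer mice at 0.34 (SE 0.0731, adjusted p = 0.00124), with means of 71.9 and 90.9 TPM at 21% and 11% O2. Slc2a4, the gene of the insulin-responsive transporter GLUT4, stood apart: its mean was 7.53 TPM in monomer and 10.4 in PFF mice at 21% O2, and 7.44 and 6.45 at 11% O2. It was called for PFF against monomer at 21% O2 (0.48, adjusted p = 0.00546), lower at 11% O2 in PFF mice (-0.69, adjusted p = 0.000416), and for the interaction (-0.68, adjusted p = 0.0214). Slc2a10 was also called for PFF at 21% O2 (0.29, adjusted p = 0.0393). No gene of the lists for glycogen, the pentose phosphate pathway, gluconeogenesis and anaplerosis, the PDH partners or other glycolytic genes and regulators was called in the 5 comparisons.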

How the data were processed

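SN of 48 mice was profiled by bulk RNA-seq after poly(A) selection. The authors removed ribosomal reads, aligned the rest to mm10 with STAR 2.7.5a, removed duplicates with Picard 2.21.9 and counted reads per GENCODE vM24 gene with featureCounts 2.0.1, keeping the primary alignment and using no strand option. They deposited whole-number counts and TPM (which sum to 1000000 per mouse), and, after leaving out 6 mice by principal components, counts and TPM corrected for harvest batch with ComBat-seq for 42 mice. Corrected counts are treated as known by the test, which does not carry the uncertainty of the correction. Reads shared with near-identical copies (Pgam1-ps2, Pgk1-rs7, Eno1b) could have been counted for either copy. Other genes overlap Aldoa (Fam57b), Gapdh (Iffo1), Pfkp (Pitrm1), Pfkm (Senp1), Tpi1 (Spsb2), Pkm (Gm49759), Pfkfb2 (Yod1) and Pfkfb1 (Apex2). The settings name no option to count a read for several genes, so reads lying in both could have been left uncounted. Apex2 had a mean of 2.65 TPM before correction, beside 0.753 for Pfkfb1 in monomer mice at 21% O2. All these members are uncertain to that extent.

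The test was edgeR's (4.0.16, R 4.3.3) quasi-likelihood F test on the batch-corrected counts with TMM and filterByExpr, all 4 groups in one fit with no batch term and p adjusted over 14839 genes. SE is |log2 fold change|/√F, and 95% intervals are 1.96 SE either side. TPM served for levels, shares and limma 3.58.1 on log2(TPM + 1). Alternatives tried were DESeq2 1.42.0 or only its size factors, no low-count filter, a batch covariate with uncorrected counts of 42 or 48 mice, single batches, a replicate block, the adjusted p alone, limma with a pseudocount of 1 or 0.1 or a mean TPM of at least 1, and only the groups compared. Fits without 1 mouse were chosen after seeing the data. The edgeR script was tested on simulated data. The members and gene lists were chosen with earlier results of these data known. Values are given for members past the adjusted p, for the main isoform of each step and, of other lists, for up to 3 called genes by smallest p; Hk2, Slc2a3, Eno2, Pdk4, Pfkfb1 and the remaining members named with values were chosen after their values were seen. Positions are those of the same identifiers in GENCODE vM21 on GRCm38. The labels give separate mice per replicate. A result on 1 gene of the other carbohydrate lists is not reported here.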

Additional observations from a re-analysis of the deposited data

Results flagged for a closer look

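In groups of 9 or 10 mice, 76 member and group combinations were examined for a mouse far from the rest of its group by Dixon's criterion, and 7 were found, where chance flags about 1 in 20. Monomer mouse 3 at 11% O2 (batch 1) accounted for 3 of them, with the highest Gpi1 (580.0 TPM, next 476.3) and the lowest Mpc1 (85.7, next 100.3) and Mpc2 (28.7, next 34.5). Eno1 was highest in monomer mouse 1 at 11% O2 (873 TPM, next 802), and Pdk4 in monomer mouse 7 (28.4, next 19.8). In PFF mice at 11% O2, Gapdh was lowest in mouse 3 (1233 TPM, next 1343) and Slc16a3 highest in mouse 9 (14.8, next 11.7). Without PFF mouse 9, Slc16a3 was still called in PFF mice. No member passed the adjusted p in the test of the difference between the monomer and PFF responses to 11% O2.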

How the results depend on the processing

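Of the members called in monomer mice at 11% O2 (6), the count was 2 in batch 1 alone and 12 by the adjusted p alone; in PFF mice (5), it was 1, 0 and 0 in batches 1, 2 and 3 alone and 9 by the adjusted p alone. These settings test fewer mice or drop the fold threshold. Under the other alternatives the counts were within 1.5 times, from 5 to 9 in monomer and from 4 to 5 in PFF mice, and 0 members were called for PFF or for the interaction under any of them. Leaving out 1 of the mice flagged at 11% O2, the counts ranged from 6 to 9 and from 4 to 5, with 9 without monomer mouse 3 at 11% O2. Ldha, Pfkl, Pdk1 and Slc16a3 were called in both O2 comparisons under each of the 15 alternatives that kept all batches, with log2 fold changes from 0.45 to 0.59 for Ldha, 0.33 to 0.41 for Pfkl, 0.27 to 0.36 for Pdk1 and 0.66 to 0.80 for Slc16a3. Pfkfb2 kept its adjusted p under 0.05 in 3 of 15, Gpi1 in 7, Slc2a1 in 8 and Slc16a7 in 13, which lost it with batch as a covariate. No result past the adjusted p reversed its sign. The paper describes matching mice across treatment groups by weight, age, delivery date and, where possible, cage. The labels do not say whether replicate numbers give these matches. Of 54 pairs with the same number, 21 had a correlation of their deviations above 0.1 (median 0.00335). Some pairs with different numbers also exceeded 0.1. These correlations cannot show whether mice were matched, because matching need not leave a correlation in expression. With the replicate block, 8 members were called in monomer mice and 4 in PFF mice, and 0 for the others. Isoform shares before batch correction moved by less than 1 SD in all 96 values, and in 16 of 96 within batch 1 they moved by more. Slc16a3 had the widest SE of the called members (0.161 and 0.169), and at this precision the interval of the difference between its 2 responses ran from -0.46 to 0.45; the cause of the width was not tested.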

Other observations

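The 6 mice left out by the authors had the following levels before batch correction. Of these, 1 PFF mouse at 11% O2 had 3134594 counts, so its values are less precise, and the other 5 had from 13265802 to 16748035. Ldha was 155.3 TPM in the monomer mouse at 21% O2, had a median of 188.1 and a minimum of 153.0 in the 3 monomer mice at 11% O2, and was 228.0 in 1 PFF mouse at 11% O2 and 231.2 in the PFF mouse with few counts. Pfkl was 84.5 TPM in the mouse at 21% O2 and 85.1 (the mouse with few counts) to 123.3 in the 5 mice at 11% O2. Slc16a3 was 2.52 TPM at 21% O2 and 5.82 to 9.45 (the mouse with few counts) at 11% O2.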
